A study of Homo sapiens with 8 samples.

Results

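The genes described here are the 4 inhibitors of DNA binding, ID1 to ID4, and 6 genes of bone morphogenetic protein (BMP) signalling, namely the inhibitory SMADs SMAD6 and SMAD7, the receptor SMADs SMAD1 and SMAD5, the ligand GDF5 and the receptor BMPR1A. Their probe sets, the groups of short oligonucleotides that read 1 transcript, were taken by gene name where the array annotation gave exactly 1 symbol. This gave 9 probe sets of 9 genes among 8746 on the 12 h arrays, and 17 of the same 9 genes among 22215 on the 6 h arrays. BMPR1A had no probe set under that rule and was not analysed here. All 9 probe sets at 12 h passed the filter on dim signals, SMAD6 only through its mock arrays (its treated mean was under the limit), and 12 of the 17 at 6 h did.

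The genes were picked because of their 12 h values, in which several had already been seen to differ. Those values are therefore given as a description, without a test.

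The samples were total RNA of MRC5 cells, an established line of human diploid lung fibroblasts, read on single-colour arrays. At 12 h there were 3 arrays of cells given 10 µM 8-oxoguanine, the free oxidised base, and 3 arrays of mock cells given the solvent. At 6 h there was 1 array of each kind, of a larger array type, with no replicate. All cells grew in medium with serum, and the labels name no genetic change in any group. The labels call the 12 h arrays technical replicates by extract, and nothing says that they came from separate cultures, so error bars and p-values may measure technical spread only.

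BMP ligands bind pairs of type I and type II serine/threonine kinase receptors at the cell surface. The type I receptor phosphorylates SMAD1 and SMAD5, which enter the nucleus with SMAD4 and switch on target genes. ID1, ID2 and ID3 are classical targets, and SMAD6 and SMAD7 are targets that feed back to block the receptor. ID proteins carry a helix-loop-helix domain without the basic region that touches DNA, so they hold E proteins and other basic helix-loop-helix (bHLH) factors in pairs that cannot bind. In fibroblasts and other mesenchymal cells they are known for keeping cells dividing and for holding back differentiation.

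The 250 bases before the transcription start are shown for the 4 members at least 2-fold lower at 12 h (ID1, ID3, SMAD6 and SMAD7) and for GDF5, which was higher, so that their SMAD and bHLH motifs can be compared. They come from RefSeq, build GRCh38.p14, and all 10 genes had an entry. The windows are ID1 chr20:31605039-31605288 (plus strand), ID3 chr1:23559502-23559751 (minus strand), SMAD6 chr15:66701986-66702235 (plus strand), SMAD7 chr18:48950966-48951215 (minus strand), GDF5 chr20:35454750-35454999 (minus strand). SMAD7 has 3 annotated starts, of which the first is shown. Capitals mark GTCTAGAC, a palindrome that SMAD3 and SMAD4 bind, CAGAC or its reverse complement GTCTG, the shorter SMAD-binding core, and GGCGCC, a GC-rich element bound by SMAD1 and SMAD5. Each line reads 5′ to 3′ on the gene's strand.
ID1: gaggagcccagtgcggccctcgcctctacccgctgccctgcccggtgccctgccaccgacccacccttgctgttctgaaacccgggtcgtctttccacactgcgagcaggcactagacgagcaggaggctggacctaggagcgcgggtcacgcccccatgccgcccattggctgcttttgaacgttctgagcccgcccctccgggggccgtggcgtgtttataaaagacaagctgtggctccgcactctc
ID3: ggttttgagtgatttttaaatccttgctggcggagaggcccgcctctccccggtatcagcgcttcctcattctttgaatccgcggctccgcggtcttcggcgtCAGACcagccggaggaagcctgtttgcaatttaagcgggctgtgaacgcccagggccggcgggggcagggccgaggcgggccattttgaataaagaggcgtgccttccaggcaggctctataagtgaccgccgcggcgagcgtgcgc
SMAD6: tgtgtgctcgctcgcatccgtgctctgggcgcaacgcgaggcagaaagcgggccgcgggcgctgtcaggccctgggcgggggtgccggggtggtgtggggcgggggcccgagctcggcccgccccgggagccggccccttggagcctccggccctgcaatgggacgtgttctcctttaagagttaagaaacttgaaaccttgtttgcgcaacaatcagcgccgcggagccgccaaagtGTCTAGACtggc
SMAD7: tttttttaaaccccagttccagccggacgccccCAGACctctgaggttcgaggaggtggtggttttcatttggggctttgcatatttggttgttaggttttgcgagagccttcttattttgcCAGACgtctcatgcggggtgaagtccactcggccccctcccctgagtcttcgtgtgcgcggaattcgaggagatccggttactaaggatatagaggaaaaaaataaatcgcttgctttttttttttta
GDF5: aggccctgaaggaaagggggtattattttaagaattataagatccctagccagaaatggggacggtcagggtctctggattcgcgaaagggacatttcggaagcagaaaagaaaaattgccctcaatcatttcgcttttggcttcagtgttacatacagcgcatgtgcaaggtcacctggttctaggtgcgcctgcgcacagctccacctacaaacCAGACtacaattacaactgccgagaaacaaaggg

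The SMAD6 window held GTCTAGAC, which begins 12 bases before the start and which 64 of 35116 windows of that length (0.182%) hold. CAGAC or GTCTG stood in the ID3 window at 147 bases before the start and in the SMAD7 window at 217 and 128 bases. The GDF5 window held it too, 34 bases before the start, and 38% of all windows do. The ID1 window held none of the 3 motifs, and GGCGCC was in none of these 5 windows (16.4% of all windows). It stood in the windows of 2 of the 5 annotated starts of SMAD1, with 2 matches in each. CANNTG, the E-box that bHLH factors bind, was absent from the ID1, ID3 and SMAD6 windows, present 1 time in that of SMAD7, 184 bases before the start, and 3 times in that of GDF5 (61.8% of all windows). For the other annotated starts of SMAD7, the window of start 2 held CAGAC or GTCTG 1 time and no CANNTG. That of start 3 held CANNTG 1 time and neither CAGAC nor GTCTG. Both strands were searched, and GTCTAGAC shares its first 4 letters with GTCTG without holding it. A match or its absence is a description of these letters and says nothing of binding, and bases outside the windows were not searched.

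ID1 and ID3 had the lowest treated levels relative to mock of the 9 genes at 12 h. ID1 had signals of 844, 847 and 734 on the 8-oxoguanine arrays, against 3493, 3492 and 3292 on the mock arrays. The groups were far apart, the highest treated array lying 2445 units below the lowest mock array, and ID1 averaged 808 ± 64.1 in treated and 3426 ± 116 in mock cells (SD, n = 3 each), a treated level 23.6% of mock. ID3 had 386, 306 and 372 on the 8-oxoguanine arrays, against 1708, 1785 and 1484 on the mock arrays. ID3 averaged 355 ± 42.7 in treated and 1659 ± 156 in mock cells (SD, n = 3 each), a treated level 21.4% of mock, and the groups again stayed well apart. The log2 differences, 8-oxoguanine minus mock, were -2.09 for ID1 and -2.23 for ID3, with pooled standard deviations within groups of 0.090 and 0.16. They had ranks 5 and 3 from the lowest of the 5248 probe sets kept, of which 5 (0.0953%) were 4-fold or more lower. In bulk RNA such as this, fewer cells that make a transcript and less transcript per cell cannot be told apart.

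The other ID genes differed from this pair. ID2 had 929, 896 and 1015 on the 8-oxoguanine arrays, against 1215, 1457 and 1581 on the mock arrays. Every treated array was below every mock array, by 199 units at the closest, and the log2 difference was -0.58 with a pooled SD of 0.15. ID4, which is best known from the nervous system, had 97.3, 107 and 107 on the 8-oxoguanine arrays, against 117, 93.1 and 111 on the mock arrays. The groups overlapped, the log2 difference was -0.04, and the signal lay close to the filter limit of 93.9. Within the family the treated level was thus 21.4% and 23.6% of mock for ID3 and ID1, 67.1% for ID2 and 97.4% for ID4.

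**Figure D1:**
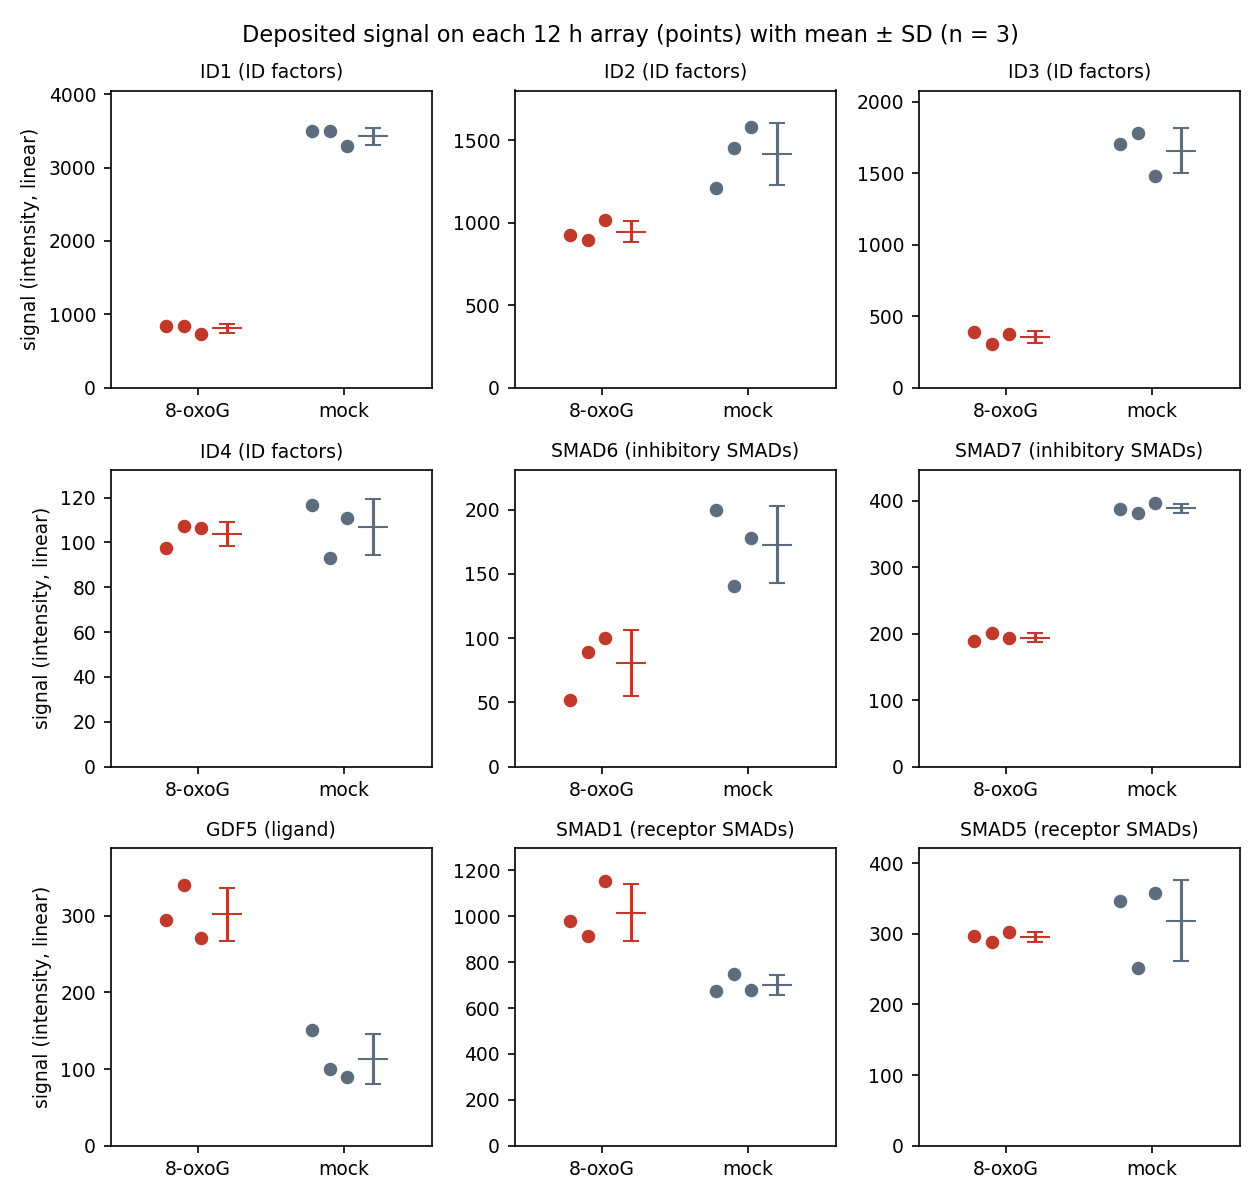
Signal (intensity on a linear scale, from 0) of the 9 measured genes on each 12 h array, 8-oxoguanine at the left and mock at the right of each panel, with the mean ± SD (n = 3) beside the points. ID1, ID3 and SMAD7 show tight groups far apart, while the groups overlap for ID4 and SMAD5.

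Both inhibitory SMADs were lower in treated cells. SMAD7, which competes with receptor SMADs for the type I receptor and brings ubiquitin ligases to it, had 189, 201 and 193 on the 8-oxoguanine arrays, against 388, 382 and 396 on the mock arrays. SMAD7 averaged 194 ± 6.12 in treated and 389 ± 7.19 in mock cells (SD, n = 3 each). It had the smallest pooled SD of the 9 genes, 0.037, and the treated level was 50% of mock (log2 difference -1.0). SMAD6, which acts mainly on the BMP branch, had 51.6, 89.4 and 100.3 on the 8-oxoguanine arrays, against 199.6, 140.3 and 177.8 on the mock arrays. The groups did not overlap, but the spread was wide and 2 of the 3 treated arrays were below the filter limit, so the size of the log2 difference of -1.14 (pooled SD 0.41) is uncertain. It was -0.85 without 8-oxoguanine replicate 1, the lowest array, in the fit of the remaining arrays.

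The upstream genes showed another pattern. GDF5, a BMP-family ligand of joints and skeletal tissue that binds type I receptors with SMAD1 and SMAD5 downstream, had 295, 340 and 272 on the 8-oxoguanine arrays, against 150.9, 100.7 and 89.4 on the mock arrays. GDF5 averaged 302 ± 34.6 in treated and 114 ± 32.7 in mock cells (SD, n = 3 each). It was 2.72-fold higher in treated cells (log2 difference 1.44, pooled SD 0.30), with 1 mock array below the filter limit. SMAD1 had 981, 913 and 1153 on the 8-oxoguanine arrays, against 674, 750.5 and 679.8 on the mock arrays. All 3 treated arrays were above all 3 mock arrays, and the log2 difference was 0.53 with a pooled SD of 0.14. SMAD5, its close relative, had 297, 289 and 303 on the 8-oxoguanine arrays, against 346, 252 and 357 on the mock arrays. The treated arrays lay inside the range of the mock arrays, and the log2 difference was -0.09.

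Set side by side, the 6 probe sets of ID genes and inhibitory SMADs all had log2 differences below 0, from -2.23 to -0.04 with a median of -1.07. The 3 of the ligand and the receptor SMADs ran from -0.09 to 1.44 with a median of 0.53, and the median over all 5248 probe sets was 0.0072. Treated and mock arrays were fully separate at 7 of the 9, 5 lower and 2 higher, where 33.9% of all probe sets kept showed no overlap (16.5% lower and 17.4% higher). Of all kept, 0.572% were 2-fold or more lower, among them ID1, ID3, SMAD6 and SMAD7, and 0.553% were 2-fold or more higher, among them GDF5. Nothing is read from these counts, since the genes were chosen on this contrast. By array, the median of the first set, relative to the mean of the mock arrays, was -1.38, -0.94 and -0.89 on the 8-oxoguanine arrays, against 0.04, 0.0014 and 0.04 on the mock arrays. The median of the second set was 0.49, 0.38 and 0.72 on the 8-oxoguanine arrays, against 0.14, -0.14 and -0.04 on the mock arrays.

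**Figure D2:**
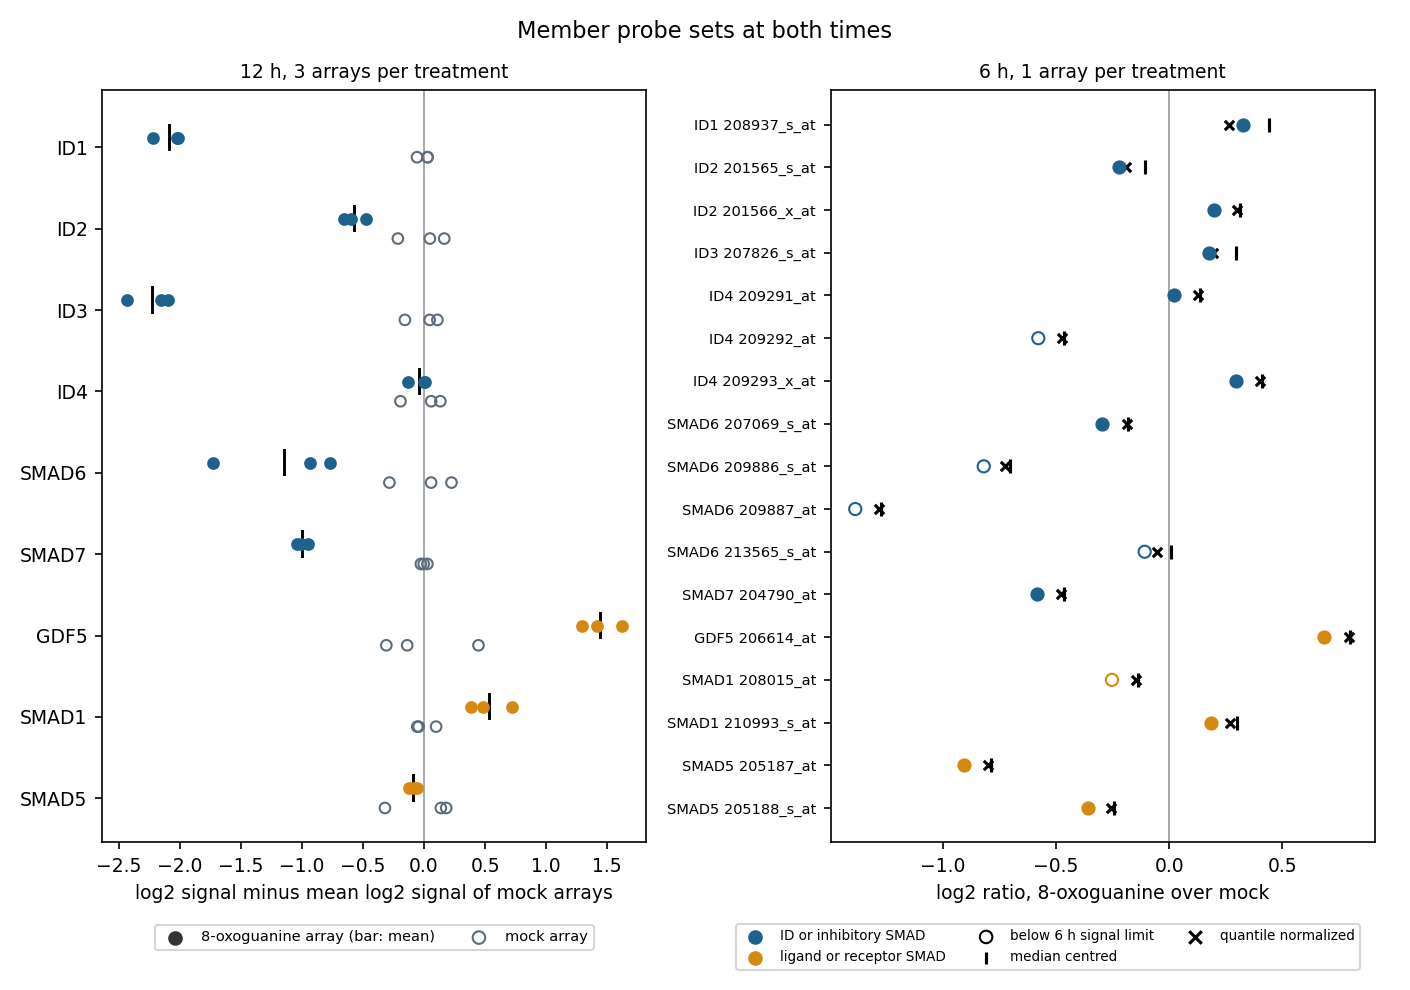
Left, log2 signal of each 12 h array minus the mean of the mock arrays, with 8-oxoguanine arrays filled, mock arrays open and the treated mean as a bar. Right, log2 ratio of 8-oxoguanine over mock on the single pair of 6 h arrays for all 17 probe sets, open where dim, with the ratio after median centring (bar) and quantile normalization (cross). ID1 and ID3 are far below 0 at 12 h and above 0 at 6 h, while SMAD7 is below and GDF5 above 0 at both times.

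At 6 h, where no test was possible, ID1 and ID3 were not lower in treated cells. ID1 had a signal of 3408 on the 8-oxoguanine array, against 2718 on the mock one (log2 ratio 0.33). ID3 had 2064 on the 8-oxoguanine array, against 1825 on the mock one (log2 ratio 0.18). The probe set of ID2 read at 12 h had 1453 on the 8-oxoguanine array, against 1694 on the mock one (log2 ratio -0.22), whereas its other probe set, a dimmer one of a class that may also match related transcripts, had 0.20. The probe set of ID4 read at 12 h had 0.02 and its 2 others 0.30 and, from signals of 31.1 and 46.5, -0.58.

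SMAD7 was on the lower side at 6 h as well. The SMAD6 ratios were below 0, but the probe set read at 12 h was near the limit of 148 and its 3 others were under it. SMAD7 had 254 on the 8-oxoguanine array, against 380 on the mock one (log2 ratio -0.58). The SMAD6 probe set read at 12 h had 158.5 on the 8-oxoguanine array, against 195 on the mock one (log2 ratio -0.30), and its 3 other probe sets, with signals between 7.31 and 88.7, had -0.82, -1.39 and -0.11. GDF5 had 227 on the 8-oxoguanine array, against 141 on the mock one (log2 ratio 0.68). SMAD1 had 743 on the 8-oxoguanine array, against 654 on the mock one (log2 ratio 0.18), and a dim second probe set had -0.25. SMAD5 had 213 on the 8-oxoguanine array, against 399 on the mock one (log2 ratio -0.90), and its other probe set had -0.36, where the 12 h groups of SMAD5 overlapped.

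Of the 12 probe sets above the 6 h limit (a signal of 148), 1 was 1.5-fold or more higher (GDF5) and 1 was 1.5-fold or more lower (SMAD5), while 8.76% of all 11108 kept were past that size (3.32% higher and 5.44% lower). GDF5 passed the limit only through the treated array, its mock signal of 141 being under it, so its place in this count supports nothing. SMAD7, at -0.58 on the log2 scale, fell just short of that size. Bright probe sets read higher on the treated 6 h array, the 328 probe sets above a signal of 8000 having a median log2 ratio of 0.67, and median centring moved all ratios up by 0.12. Relative to that shift, the ratio of ID1 was 0.44 and that of ID3 0.29, and with quantile normalization they were 0.27 and 0.19. SMAD7 was at -0.47 and -0.48 and GDF5 at 0.80 with either. No probe set above the limit changed sign under these scalings. The share of probe sets with a ratio above 1 was 45.6% of those kept.

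Around these genes, 124 others of the pathway were listed by their role, and 97 were on the 12 h arrays, 69 of them above the filter limit. Of these 69, 5 were higher and 7 lower past a limma adjusted p of 0.05, and 57 did not pass. That is 17.4%, against 13.2% of all 5248 probe sets (6.59% higher and 6.65% lower), so the share called in the pathway was near the background. The count was 7 without 8-oxoguanine replicate 2 and 7 without mock replicate 3, and that over all probe sets 371, 386 and 451 without 8-oxoguanine replicate 1, 8-oxoguanine replicate 2 and mock replicate 3. The calls of 7 genes (TGFB1, TGFBR1, TGFBR2, SNAI2, KLF10, TCF21 and BHLHE40) held in all 13 alternative settings, and those of the other 5 were lost in some.

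Among 12 ligands above the filter limit, TGFB1, which encodes transforming growth factor beta, fell. TGFB1 had 1023, 993 and 978 on the 8-oxoguanine arrays, against 1361, 1466 and 1419 on the mock arrays. Its log2 difference was -0.50 (SE 0.07, limma adjusted p = 0.00195). None of the other 11 passed. Their values were mostly small and positive, 9 of the 12 being above 0 with a list median of 0.28, and BMP2, at 0.38 (SE 0.51), and BMP5, at 0.35 (SE 0.21), had the largest. Of 6 antagonists, GREM1, or gremlin, a secreted trap for BMPs, rose by 0.26 (SE 0.07, limma adjusted p = 0.0332), a call lost in 7 of 13 settings. FST and FSTL3, which encode follistatin and a relative, had -0.10 (SE 0.16) and -0.21 (SE 0.12) and did not pass.

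Of 11 receptors and co-receptors, 1 rose and 2 fell. TGFBR1, the type I receptor of the TGF-beta branch, had 642, 629 and 579.5 on the 8-oxoguanine arrays, against 414, 405.5 and 430.0 on the mock arrays, and rose by 0.57 (SE 0.09, limma adjusted p = 0.00375). Its partner TGFBR2 had 1939, 1910 and 2025 on the 8-oxoguanine arrays, against 2421, 2570 and 2489 on the mock arrays, and fell by 0.35 (SE 0.07, limma adjusted p = 0.00792). ENG, or endoglin, a co-receptor, fell by 0.44 (SE 0.11, limma adjusted p = 0.0291), which was lost in 8 of 13 settings. TGFBR3 and ACVR1B had 0.62 (SE 0.22) and -0.39 (SE 0.27) and did not pass. Of 12 other SMADs and SMAD regulators, SMURF2, a ubiquitin ligase for SMADs and their receptors, fell by 0.30 (SE 0.08, limma adjusted p = 0.0435). CTDSP2, a phosphatase that acts on SMADs, rose by 0.24 (SE 0.07, limma adjusted p = 0.0482), and these calls were lost in 9 and 10 settings. PPM1A, another SMAD phosphatase, had 0.53 (SE 0.16) and SMAD2 0.37 (SE 0.12), and neither passed.

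Of 16 other SMAD target genes, 1 rose, 2 fell and 13 did not pass. Their median was -0.26, and 11 of the 16 were below 0. KLF10, an early response gene of TGF-beta, had 575, 611 and 427 on the 8-oxoguanine arrays, against 1277, 843 and 1135 on the mock arrays, and fell by 1.01 (SE 0.17, limma adjusted p = 0.00492). SNAI2, the zinc-finger repressor Slug, had 660, 583 and 676 on the 8-oxoguanine arrays, against 1146, 1111 and 1164 on the mock arrays, and fell by 0.84 (SE 0.08). Its adjusted p in limma was 0.000352, and the groups did not overlap. MSX1, a homeobox factor switched on by BMPs in the embryo, went the other way, with 194, 213 and 192 on the 8-oxoguanine arrays, against 114, 152 and 109 on the mock arrays. It rose by 0.69 (SE 0.18, limma adjusted p = 0.0331), lost in 7 of 12 settings. DLX2 and SNAI1 had -0.84 (SE 0.32) and -0.81 (SE 0.27) and did not pass.

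**Figure D3:**
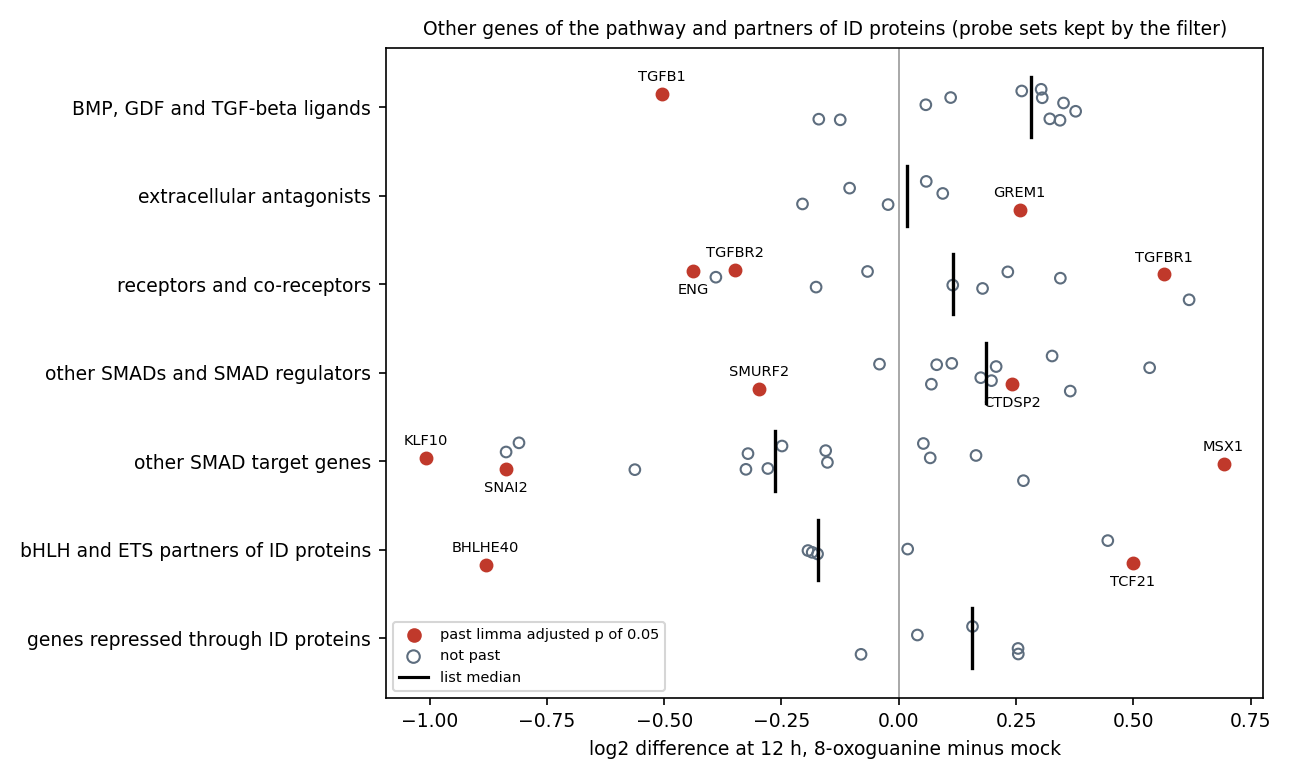
Log2 difference at 12 h, 8-oxoguanine minus mock, of the 69 other genes above the filter limit, by list, with genes past a limma adjusted p of 0.05 filled and named, the rest open and the list median as a bar. KLF10, SNAI2 and BHLHE40 lie lowest and MSX1 highest of the genes that passed.

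Of 7 bHLH and ETS factors above the filter limit that ID proteins can bind or counter, 1 rose, 1 fell and 5 did not pass. TCF21, a bHLH factor of mesenchymal cells that pairs with E proteins, had 638, 637 and 642 on the 8-oxoguanine arrays, against 456, 447 and 453 on the mock arrays. It rose by 0.50 (SE 0.08, limma adjusted p = 0.00432). BHLHE40, a bHLH repressor of the clock and hypoxia responses, had 391, 371 and 427 on the 8-oxoguanine arrays, against 711, 882 and 617 on the mock arrays, and fell by 0.88 (SE 0.13, limma adjusted p = 0.00266). TWIST1, at 0.45 (SE 0.16), and the E protein gene TCF12, at -0.19 (SE 0.11), did not pass. None of the 5 genes above the filter limit that are known to be repressed through ID proteins passed in limma. Among them CDKN1B, which encodes the cyclin-dependent kinase inhibitor p27, had 0.25 (SE 0.21) and THBS1, or thrombospondin, 0.25 (SE 0.14). At 6 h, 7 of the 12 genes called at 12 h had a ratio of the opposite sign, among them TGFB1 (0.25) and MSX1 (-0.48). SNAI2 had -0.30 and KLF10 -0.07. TGFBR1 (-0.05) and TCF21 (-0.10) were counted as opposite, and KLF10 and SMURF2 (-0.04) as the same. These ratios were smaller in size than the shift of 0.12 by median centring. The count thus depends on the scaling, and nothing is read from it, 45.6% of all kept 6 h ratios being above 1.

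By profile over the 6 arrays at 12 h, the 5 genes nearest to the mean of ID1 and ID3, by root mean square distance of centred log2 values among 4736 candidates, were MMP3 (0.28), EDN1 (0.34), NPTX1 (0.39), SCG2 (0.41) and ENDOG (0.43). They were chosen for this likeness, so their values are a description. MMP3, SCG2 and ENDOG had treated means of 75.6, 86.4 and 59.7, under the limit of 93.9, so they were candidates only through their mock arrays and their distances rest on dim treated values. MMP3, which encodes a stromal protease, had 64.5, 103 and 59.3 on the 8-oxoguanine arrays, against 328, 319 and 305 on the mock arrays. EDN1, which encodes the vasoconstrictor endothelin, had 113, 176 and 102 on the 8-oxoguanine arrays, against 436, 418 and 436 on the mock arrays. In both, 8-oxoguanine replicate 2 was the highest of the treated arrays. For ID1 replicate 2 was also the highest, at 847 against 844 on replicate 1, whereas for ID3 it was the lowest. NPTX1, a secreted pentraxin, had 323, 258 and 275 on the 8-oxoguanine arrays, against 809, 730 and 711 on the mock arrays. At 6 h MMP3 had a log2 ratio of 0.14, EDN1 -0.10 and NPTX1 -0.02, while SCG2 had -0.85 and ENDOG -0.30.

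**Figure D4:**
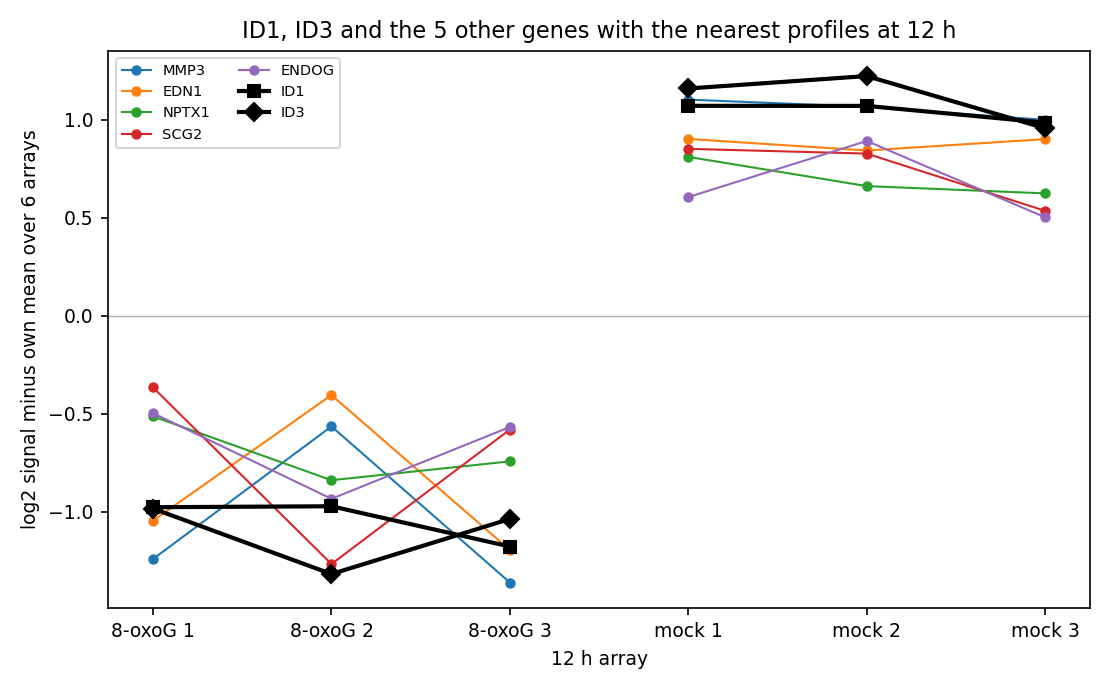
Log2 signal minus each gene's own mean over the 6 arrays at 12 h, for ID1 and ID3 (black) and the 5 other genes with the nearest profiles, lines joining arrays of one treatment. All 7 genes are below 0 on the 3 8-oxoguanine arrays and above 0 on the 3 mock arrays.

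The cells carried the markers of fibroblasts, all 9 measured of 12 listed being above the limit, with summed signals of 61470 to 75523 on the 8-oxoguanine arrays, against 62423 to 75867 on the mock arrays. These sums are set mainly by COL1A1, COL1A2 and VIM. Of the 9, LUM rose by 1.07 (SE 0.17, limma adjusted p = 0.0034), PDGFRB rose by 0.30 (SE 0.08, limma adjusted p = 0.0446) and S100A4 fell by 0.58 (SE 0.09, limma adjusted p = 0.00302), and 6 did not pass. Of 7 epithelial markers, EPCAM, CDH1 and KRT5 were below the limit, and the list's sums were 4363 to 4643 on the 8-oxoguanine arrays, against 4255 to 4522 on the mock arrays, set mainly by KRT18. Endothelial sums were 209 to 260 on the 8-oxoguanine arrays, against 235 to 275 on the mock arrays, and blood sums 291 to 346 on the 8-oxoguanine arrays, against 256 to 371 on the mock arrays, with VWF, CDH5, TEK, KDR, PTPRC, CD14 and CD3D below the limit. The endothelial marker PECAM1 was above the limit, with 94.9 to 143 on the 8-oxoguanine arrays, against 125 to 148 on the mock arrays. HBB, which mainly set the blood sums, was above it too, with 213 to 216 on the 8-oxoguanine arrays, against 206 to 242 on the mock arrays. Neither PECAM1 nor HBB passed in limma. Of the 4 epithelial markers above the limit, KRT19 fell by 1.27 (SE 0.17, limma adjusted p = 0.00145). The others did not pass, KRT8 having 0.49 (SE 0.19), KRT18 0.12 (SE 0.07) and MUC1 -0.44 (SE 0.19). The part of these markers in the results was not tested. The ratio of actin signals from the 3' and 5' ends did not overlap between groups, at 1.03, 1.07 and 0.999 on the 8-oxoguanine arrays, against 0.995, 0.889 and 0.946 on the mock arrays. The same ratio for GAPDH overlapped, at 0.805, 0.802 and 0.843 on the 8-oxoguanine arrays, against 0.779, 0.826 and 0.804 on the mock arrays. The part of RNA quality in these results was not tested.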

How the data were processed

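Total RNA of MRC5 fibroblasts was read on single-colour arrays, 3 per treatment at 12 h and 1 per treatment at 6 h, grouped by the treatment and time labels. Where the treatment protocol (6 h throughout) and the time labels disagreed, the labels were used. The authors deposited 1 linear intensity per probe set and array, computed by MAS5 according to the labels (per the submitters' processing notes), its version and settings not given in the sources used here. Trimmed means of 500.1 to 500.5 show a common scaling. Precision is limited by the number of arrays and, at 12 h, by replicates that the labels call technical.

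The deposited intensity entered as log2 with no further scaling. Control probe sets, and those under the 40th percentile of mean log2 signal at 12 h (3498 of 8746), were left out of the test. The 6 h limit was the 50th percentile. Treated and mock arrays at 12 h were tested two-sided in limma 3.58.1 (R 4.3.3, eBayes, trend on mean intensity), with p-values adjusted by Benjamini-Hochberg over 5248 probe sets. Tested on simulated data of that size, the fit called 81 of 100 spiked 2-fold changes, 53 of 100 spiked 1.5-fold changes and 5 unchanged probe sets. The simulated noise was independent and had each probe set's own spread among these arrays, so variation between cultures was not covered.

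Names came from the platform annotation, 7840 probe sets at 12 h and 19064 at 6 h having 1 symbol. Sequences came from RefSeq. All members were named, and in each pathway list the genes past the threshold and up to 2 others with the largest difference. The members and lists were chosen with earlier results of these data known. Alternatives tried were quantile normalization, median centring, a 60th percentile filter or none, a constant (the 20th percentile of the signals) before log2, no trend, the replicate number as a block, and each 12 h array left out.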

Additional observations from a re-analysis of the deposited data

Results flagged for a closer look

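ID1 and ID3 stood lower on every 8-oxoguanine array at 12 h and higher on the 8-oxoguanine array at 6 h. The log2 values, 8-oxoguanine over mock, were 0.33 at 6 h and -2.09 at 12 h for ID1, and 0.18 at 6 h and -2.23 at 12 h for ID3. No test of 6 h against 12 h was made, since time, array type and number of arrays differed together and 6 h had 1 array per treatment. The 12 h time itself rests on the time labels, as the treatment protocol gives 6 h throughout.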

How the results depend on the processing

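The median log2 difference at 12 h lay between -1.16 and -0.90 for the ID and inhibitory SMAD probe sets and between 0.43 and 0.60 for the ligand and receptor SMAD probe sets, over scalings, the added constant, the replicate block and each array left out. For single members, ID1 stayed between -2.12 and -2.02, ID3 between -2.31 and -2.13, ID2 between -0.68 and -0.49, SMAD6 between -1.33 and -0.85 and GDF5 between 1.23 and 1.66. SMAD7 lay between -1.02 and -0.90, the latter with the added constant, a move larger than its pooled SD of 0.037. SMAD6 and SMAD7 were thus not 2-fold lower in every setting. ID4 (-0.13 to 0.03) and SMAD5 (-0.25 to 0.0022) took either sign. At 6 h the median over all 12 ID and inhibitory SMAD probe sets was -0.17 and over the 8 above the limit 0.10, so the filter set its sign, and those of the ligand and receptor SMADs were -0.25 and -0.09. The pathway count of 12 called was 7 with no filter, where more dim probe sets were tested, 7 with the replicate block and 7 to 13 with an array left out. The count of 695 over all probe sets was 371 to 649 with an array left out. Same-numbered arrays deviated with r = 0.08, -0.15 and -0.05, within the range of arrays of other numbers (-0.18 to 0.20). No pairing by number was seen, but so few correlations cannot exclude it. With the block, 513 probe sets were called. Signals near the limit of 93.9 leave the size of the SMAD6, ID4 and GDF5 differences uncertain.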
